A study of Mus musculus with 38 samples.

Results

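Divergent promoter pairs are neighbouring start sites from which transcription runs outward on opposite strands. In the cap analysis of gene expression (CAGE) of mouse soleus muscle, a pair was a minus-strand and a plus-strand cluster of start sites on the same chromosome, each the other's nearest cluster of the opposite strand, with the plus-strand peak 0 to 1000 bp to the right of the minus-strand peak. Of 10819 clusters, 786 (7.26%) formed 393 such pairs. The pairing rule used positions alone, with no level and no change between groups. The clusters it drew on had been called by the authors according to tag abundance, so start sites with few tags can be missing.

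The soleus of male C57BL/6J mice of about 8 weeks, all of 1 genotype, was sampled at ZT-22, 1 library per mouse. In experiment #1 the muscle was taken on day 1 from fed mice (Pre, 4 libraries). It was taken on day 2 after food withdrawal in the cold, when mice enter fasting-induced torpor (Mid, 8), and on day 3 after food was returned (Post, 4). By the methods the ambient temperature was set before the recording and did not change, so Pre and Post mice were in the cold as well. Mice of 3 further groups, sampled on day 2, were kept from torpor by a high ambient temperature during the fast (HiT, 4), by leaving the food in the cold (Fed, 4) or by gentle touching during the fast (Dep, 4). Experiment #2 repeated Pre (2), Mid (5) and Post (3) in other mice. For HiT and Fed the labels conflict with the methods on whether food was given, and the description in the methods is used here. A Mid mouse could be torpid or between bouts when it was sampled, so Mid mixes both states, and whole muscle mixes fibers with all other cells of the tissue.

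A divergent arrangement is common in mammalian genomes, often at CpG-rich promoters without a TATA box, and each direction has its own core promoter. Genes so arranged often serve housekeeping processes such as DNA repair, mitochondrial function and RNA processing, and the replication-dependent H2A and H2B histone genes stand head to head in clusters. Shared open chromatin lets both directions be transcribed, but the amounts made from the sides need not follow each other.

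The DNA between the start sites is shown for 6 pairs that the results below turn on or that represent a sequence class. The bases are on the plus strand of NCBI RefSeq's GRCm38.p6, lie between or on the peaks and outside GENCODE M21 exons, and capitals mark matches on either strand to the motifs searched. These were the CCAAT box by those letters, the TATA box as TATAAA, the Sp1-type GC box as GGGCGG and the site of ETS transcription factors as CCGGAAG. Sites of NRF1 and YY1 were searched by 1 longer string each, and the bases shown here hold no match to either. They are chr8:106893602-106893635 for Chtf8/Utp4, whose sides changed in opposite directions, chr10:89686286-89686370 for Scyl2/1500026H17Rik, where a coding gene faces away from a noncoding RNA, chr8:107056690-107056876 for Cog8/Nip7, whose co-change depended on the comparison, chr7:28741821-28741991 for Mrps12/Sars2, with several CCAAT boxes outside the histone genes, and chr13:22035598-22035837 and chr13:22042963-22043196 for the histone pairs Hist1h2ah/Hist1h2bk and Hist1h2ag/Hist1h2bj. A pair is named minus-strand gene first. In the Scyl2 pair the ETS match and the first GC box overlap.
Chtf8/Utp4: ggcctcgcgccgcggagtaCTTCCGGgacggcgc
Scyl2/1500026H17Rik: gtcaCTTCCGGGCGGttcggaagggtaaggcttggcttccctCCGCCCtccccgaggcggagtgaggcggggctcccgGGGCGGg
Cog8/Nip7: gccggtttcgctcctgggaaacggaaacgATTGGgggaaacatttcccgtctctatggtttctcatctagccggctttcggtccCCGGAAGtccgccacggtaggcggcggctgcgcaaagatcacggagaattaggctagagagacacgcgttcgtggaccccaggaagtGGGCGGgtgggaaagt
Mrps12/Sars2: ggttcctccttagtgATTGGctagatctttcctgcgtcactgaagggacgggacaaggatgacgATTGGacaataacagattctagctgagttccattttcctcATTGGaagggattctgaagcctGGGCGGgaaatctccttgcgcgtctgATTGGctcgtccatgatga
Hist1h2ah/Hist1h2bk: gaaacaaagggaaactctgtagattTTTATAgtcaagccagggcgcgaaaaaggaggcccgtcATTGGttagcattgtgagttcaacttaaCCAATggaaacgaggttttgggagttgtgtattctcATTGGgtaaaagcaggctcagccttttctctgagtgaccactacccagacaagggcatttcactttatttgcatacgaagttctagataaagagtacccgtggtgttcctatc
Hist1h2ag/Hist1h2bj: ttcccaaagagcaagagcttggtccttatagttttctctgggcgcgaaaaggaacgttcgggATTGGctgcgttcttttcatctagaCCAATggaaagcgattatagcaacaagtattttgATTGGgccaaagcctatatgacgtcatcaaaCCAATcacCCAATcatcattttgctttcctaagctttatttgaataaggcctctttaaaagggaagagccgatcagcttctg

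RefSeq promoter windows of 300 bases (250 before and 50 after an annotated start) held the peak of 435 of the 786 sides. The median GC content of these windows was 64.0%, against 62.3% in the 4818 other windows that held a cluster and 52.7% in all 32851 windows. An ETS match stood in 36.1% of the windows of pairs, 21.2% of the other windows with a cluster and 8.86% of all windows. The GC box was matched in 72.2%, 69.5% and 35.7%, the CCAAT box in 39.3%, 38.8% and 37.4%, and the TATA box in 7.13%, 8.07% and 13.6%. Both strands were searched throughout, and these shares are descriptions with no test. The string for YY1 stood in 7.59% of the windows of pairs, 3.05% of the other windows with a cluster and 0.852% of all windows, and that for NRF1 in 2.99%, 2.57% and 0.971%. Between the sites, all 9 histone pairs held 2 to 5 CCAAT boxes and 4 held a TATA box, at a GC content of 38.6 to 48.5%. Of the 123 other pairs with readable bases between their sites, 32 held a CCAAT box and 6 held 3 or more.

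The peaks of a pair stood 23 to 995 bp apart, with a median of 225 bp and quartiles of 128 and 365 bp. The clusters of 231 pairs overlapped each other on opposite strands, which CAGE separates because it reads the strand of each capped RNA. Both sides started a protein-coding gene in 321 pairs. A coding gene was opposite a noncoding RNA in 36 pairs and opposite a cluster with no annotated 5′ end within 500 bp in 17, and neither side had an annotated end in 8. Pseudogenes or other gene types were opposite a coding gene in 6 pairs and opposite an unannotated cluster in 1, and the remaining pairs joined a noncoding RNA to an unannotated cluster (3) or to another noncoding RNA (1). At the edge of the limit, the widest pairs were Dok1/Loxl3 (995 bp), Urod/Hectd3 (970 bp) and Gart/Son (927 bp), and the next mutual neighbours outside it were P3h4/Fkbp10 (1017 bp), Hist1h2bh/Hist1h3f (1068 bp) and Btf3l4/Txndc12 (1073 bp).

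The level of a cluster is given in TPM, tags scaled to the size of the library, or in CPM. CPM scales to the cluster tags of a library times its TMM factor, a correction for composition. The balance of a pair is given as log2 of plus-side over minus-side tags in the same library. Pairs held 5.92 to 7.41% of the cluster tags of a library. Over the libraries of experiment #1, the lower side of a pair had a median level of 12.1 CPM and the higher side 37.1 CPM. On average over all 38 libraries, the sides were within 2-fold of each other in 155 pairs and over 10-fold apart in 56. The median absolute log2 ratio was 1.37. The same side was the higher in all 38 libraries in 251 pairs (63.9%), the plus side in 127 and the minus side in 124. In the 36 pairs of a coding gene and a noncoding RNA, the coding side was the higher on average in 24.

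Cluster tags numbered 18257657 to 39176649 per library in experiment #1 and 9359994 to 20914855 in experiment #2. Markers of slow fibers (6 of 6 with a cluster) summed to 5784 to 15257 TPM in experiment #1 and those of fast fibers (6 of 6) to 3713 to 9793 TPM. In experiment #2 these sums were higher, at 16622 to 25928 TPM (slow) and 16575 to 25251 TPM (fast). Markers of both fiber types were thus present in every library, at levels that differed between the experiments. The lowest slow fiber sum was that of HiT 4, and the other HiT libraries (9096 to 10542 TPM) lay below Pre and within the range of Fed. Macrophage markers (4 of 5, Adgre1 without a cluster) summed to 47.2 to 139 TPM in HiT and 14.1 to 43.2 TPM in the other groups of experiment #1. Adipocyte markers (5 of 5) ran from 160 to 1921 TPM, red blood cell markers (4 of 5) from 1305 to 12639 TPM with the highest value in Fed, and tendon markers (4 of 4) from 325 to 719 TPM in experiment #1. In bulk muscle, fewer cells of a type and less RNA per cell cannot be told apart.

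Each cluster was tested with edgeR's quasi-likelihood test at an adjusted p (FDR) of 0.05 over all 10776 clusters of experiment #1, and the calls of the sides were then read together. From the Pre to Mid, 92 sides (11.7%) were up-regulated and 120 (15.3%) were down-regulated, against 15.4% and 14.8% of all clusters. Both sides were up-regulated in 7 pairs and down-regulated in 9, and the sides went in opposite directions in 14. In 152 pairs only 1 side passed the test, and in 211 neither did. An up-regulated side had an up-regulated partner in 15.2% of cases, and a down-regulated side a down-regulated partner in 15%. The partner of a called side was thus called in the same direction about as often as any cluster was. The count of 16 same-direction pairs fell to 10 without Mid 3 or Pre 4, to 8 without Pre 2 and to 6 without Pre 3, and was 23 without Mid 6. With library size alone it was 4. With upper-quartile scaling or library size alone, 35.7% or 36.6% of called clusters were up-regulated in place of 51.0%.

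From the Mid to Post, 160 sides (20.4%) were up-regulated and 113 (14.4%) down-regulated, against 17.5% and 17.5% of all clusters. Both sides rose in 28 pairs, both fell in 13 and they went apart in 13. The partner of an up-regulated side was up-regulated in 35.0% of cases, and that of a down-regulated side down-regulated in 23.0%. Without Post 1 or Post 3 the count of 41 same-direction pairs was 27 or 23, with library size alone it was 7, and upper-quartile scaling gave 63.3% up-regulated clusters in place of 49.9%.

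From the HiT to Mid, 135 sides (17.2%) rose and 201 (25.6%) fell, against 19.2% and 21.8% of all clusters. Both sides rose in 22 pairs, fell in 33 and went apart in 23, and the partner shared the call of 32.6% of the up-regulated and 32.8% of the down-regulated sides. All 9 histone pairs are among the 33, and without them 24 pairs fell on both sides. With library size alone the 55 same-direction pairs were 19. From the Fed to Mid, 139 sides (17.7%) rose and 99 (12.6%) fell, against 16.6% and 18.6% of all clusters, with 20 pairs up on both sides, 10 down on both and 13 apart. The partner was up-regulated beside 28.8% of up-regulated sides and down-regulated beside 20.2% of down-regulated ones. Without Fed 2 the count of 30 same-direction pairs was 17, with library size alone it was 10, and 36.7% (upper quartile) or 23.3% (library size) of called clusters were up-regulated in place of 47.1%. From the Mid to Dep, only 2 pairs were called on both sides, both up-regulated, against 1.16% of all clusters up-regulated and 0.872% down-regulated. The omission of any 1 of 19 libraries lowered this count, to 0 without Dep 1, Mid 2, 3, 4, 5 or 8, Post 1 or Pre 1 and to 1 without Mid 1 or 7, Fed 2 or 4, HiT 2 or 4, Post 2 or 3 or Pre 2, 3 or 4. The share of called clusters that were up-regulated was 57.1%, and 77.8% with library size alone. All 5 comparisons of experiment #1 share the 8 Mid libraries and so are not independent of each other. A deviation of Mid moves the Pre to Mid and Mid to Post changes in opposite directions, so a return in Post is not independent of the first step.

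**Figure D1:**
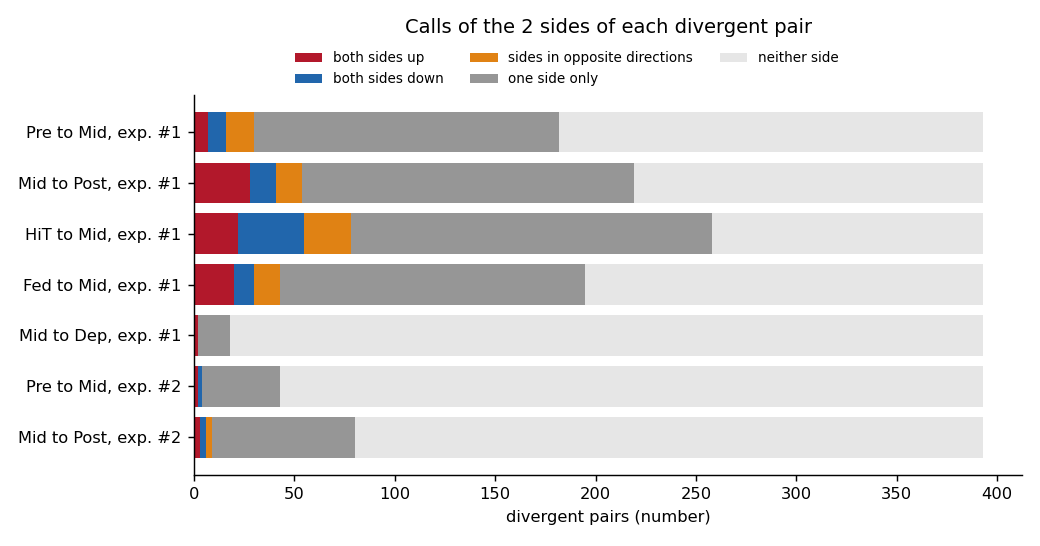
Number of divergent pairs (x axis, of 393) by the calls of their sides in each comparison (y axis, experiment number given), at an FDR of 0.05 per cluster. Bars are stacked, and the segments for both sides up, both down and opposite are short beside those for 1 side only and neither side in all 7 comparisons.

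Whether the sides of a pair kept their balance was tested on the ratio itself, with edgeR over the 393 pairs and a term for every library, so that a library's depth and scaling cancel. The ratio differed among the 6 groups of experiment #1 in 281 pairs, 71.5% of those tested. A change from the Pre to Mid was called in 122 pairs (31%), from the Mid to Post in 121 (30.8%), from the HiT to Mid in 170 (43.3%) and from the Fed to Mid in 135 (34.4%). From the Mid to Dep it changed in 7 pairs (1.78%), a count that was 4 without Dep 2, 12 without Mid 6 and 13 without Mid 7. The share of pairs with a ratio that differed among groups was 71.3% for coding-coding pairs and 72.2% for pairs with a noncoding RNA. It ran from 69.1 to 73.1% over 5 classes of spacing and was 67.2%, 71.8% and 75.6% from the lowest to the highest tertile by the level of the lower side.

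Changes of the sides were small. The median absolute log2 fold change of a side from the Pre to Mid was 0.16, and that of the ratio 0.22. Across the 393 pairs, the fold changes of the sides gave a Pearson r of 0.20 and a Spearman rho of 0.08 from the Pre to Mid, and had the same sign in 55.5% of pairs. The pairs share libraries, so these are descriptions with no test. From the Mid to Post r was 0.31 and rho 0.21, and from the Fed to Mid 0.38 and 0.19. From the HiT to Mid r was 0.77 with rho 0.27, and without the 9 histone pairs r was 0.50 and rho 0.22. Over the 6 group means of experiment #1, the correlation of the sides had a median of 0.14 with quartiles of −0.21 and 0.55. It exceeded 0.5 in 116 pairs and was under −0.5 in 42. The median was 0.11 in coding-coding pairs, 0.32 in pairs with a noncoding RNA and 0.84 in the 8 pairs with no annotated end. It was 0.99 in the 9 histone pairs, none of which was under 0.89. These were higher in HiT than in Mid, as given below, and 1 such group can set a correlation over 6 means. Across the 9 histone pairs, the fold changes of the sides gave an r of −0.33 (Pre to Mid) and −0.43 (Mid to Post). In the other comparisons it was 0.76 (HiT to Mid), 0.997 (Fed to Mid) and 0.86 (Mid to Dep).

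Mutual neighbours in other arrangements are given for scale. Among 222 outward pairs 1000 to 10000 bp apart (221 of them tested), 9 were called in the same direction and 15 in opposite directions from the Pre to Mid. In the other comparisons these counts were 14 and 17 (Mid to Post), 22 and 9 (HiT to Mid) and 9 and 17 (Fed to Mid). Their median correlation of group means was 0.19. Among 105 pairs whose start sites face each other within 1000 bp, 9 were called in the same direction and 1 in opposite directions from the Pre to Mid, against 14 and 0 (HiT to Mid), with a median correlation of 0.69. The counts of the divergent pairs by spacing are small. From the Pre to Mid, pairs 0 to 100 bp apart held 1 same-direction and 1 opposite pair of 67, those 201 to 300 bp apart 7 and 3 of 90, and those 501 to 1000 bp apart 0 and 5 of 53. That widest class held 5 same-direction and 3 opposite pairs (Mid to Post), 2 and 4 (HiT to Mid) and 4 and 3 (Fed to Mid). The ratio changed in 19.4% of the closest class, 28.4%, 33.3% and 37.0% of the next ones and 37.7% of the widest. No such order was seen in 3 other comparisons of experiment #1, where the 5 classes gave 29.9%, 29.4%, 30%, 33.3% and 32.1% (Mid to Post), 35.8%, 43.1%, 52.2%, 40.7% and 41.5% (HiT to Mid) and 35.8%, 30.4%, 34.4%, 38.3% and 34% (Fed to Mid).

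**Figure D2:**
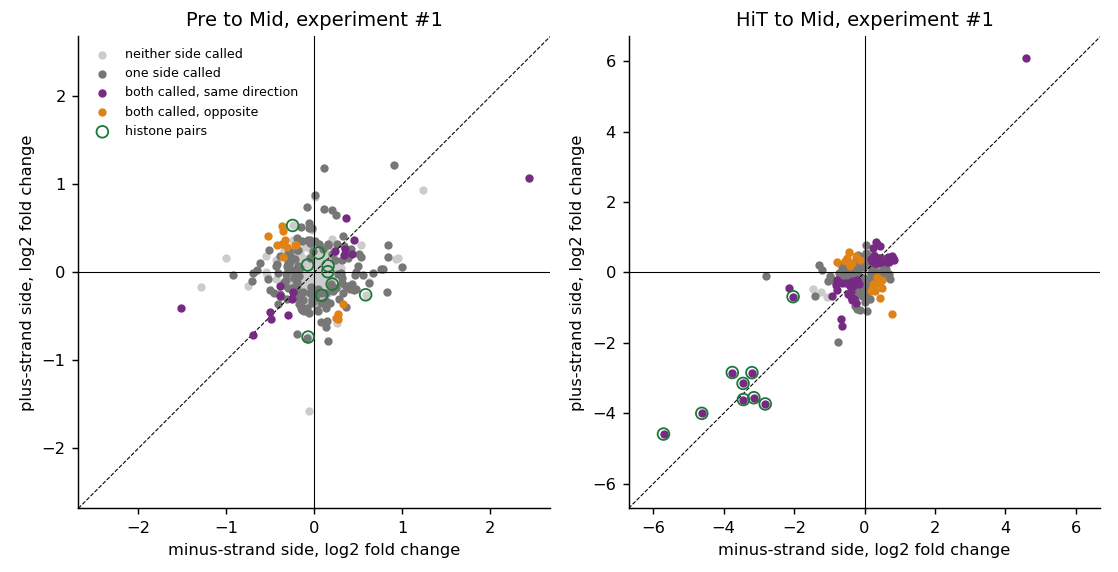
Log2 fold change of the minus-strand side (x axis) against that of the plus-strand side (y axis) for the 393 pairs, 1 point each, from the Pre to Mid (left) and from the HiT to Mid (right) in experiment #1, coloured by the calls of the sides, with histone pairs ringed and equal change dashed. Most points gather around 0, 14 pairs (left) and 23 pairs (right) are called in opposite quadrants, and the ringed histone pairs run down the diagonal only on the right.

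The 14 pairs called in opposite directions from the Pre to Mid were Chtf8/Utp4, Parp3/Rrp9, Brix1/Rad1, Cbx5/Hnrnpa1, Retreg3/Tubg1, Scyl2/1500026H17Rik, Jmjd6/Mettl23, Gon7/Ubr7, Trappc13/Trim23, Psme2/Rnf31, Sharpin/Maf1, Lamtor2/Ubqln4, Gm15179/Speg and Slc6a8 with an unannotated partner. Chtf8, a subunit of the clamp loader of sister-chromatid cohesion, and Utp4, a component of the machinery that processes the small ribosomal RNA, stand 61 bp apart on chromosome 8. Chtf8 had 26.4, 33.3, 24.5 and 29 TPM in the 4 Pre libraries and 16.7 to 25.5 TPM (median 20.5) in the 8 Mid libraries. Utp4 had 7.17, 8.98, 7.61 and 6.99 TPM in Pre and 8.64 to 11.2 TPM (median 10.4) in Mid. Each side alone overlapped slightly between groups, Mid being lower for Chtf8 and higher for Utp4. Their log2 ratio was −2.05 to −1.69 in Pre and −1.18 to −0.90 in Mid, with no overlap. Chtf8 fell by 0.36 ± 0.08 (SE, log2, adjusted p = 0.00167), Utp4 rose by 0.47 ± 0.09 (adjusted p = 0.000189) and the ratio by 0.83 ± 0.09 (adjusted p = 2.7e-07, edgeR). The ratio returned from the Mid to Post by −0.65 ± 0.09 (adjusted p = 7.32e-06), and was higher in Mid than in Fed by 0.87 ± 0.09 and than in HiT by 0.69 ± 0.09. Dep lay between, at −1.48 to −1.14, and did not pass the test against Mid (−0.27 ± 0.09, adjusted p = 0.107). In experiment #2 the ratio change was 0.38 ± 0.16 with adjusted p = 0.165.

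Rrp9, which acts on the U3 snoRNA in the same process, rose from the Pre to Mid by 0.53 ± 0.09 while its partner Parp3, an ADP-ribosyltransferase of DNA repair, fell by 0.36 ± 0.07. Their log2 ratio was −2.10 to −1.72 in Pre and −1.29 to −0.72 in Mid, and the change of 0.90 ± 0.11 (adjusted p = 1.98e-06) was not reversed in Post (−0.16 ± 0.11, adjusted p = 0.309). Brix1, an assembly factor of the large ribosomal subunit, rose by 0.27 ± 0.08 and Rad1, of the 9-1-1 clamp that senses DNA damage, fell by 0.48 ± 0.11, so that their ratio changed by −0.74 ± 0.15 (adjusted p = 0.000487) and came back by 0.71 ± 0.15 in Post. In Parp3/Rrp9 and Brix1/Rad1, as in Chtf8/Utp4, the ratios of most Mid libraries of experiment #1 lay apart from those of Pre. In experiment #2 the Brix1/Rad1 ratio was −2.07 to −1.58 in Pre and −2.69 to −1.83 in Mid, and the groups overlapped. That of Parp3/Rrp9 was −0.93 to −0.31 in Pre and −0.30 to 0.17 in Mid, where the groups nearly met. In Cog8/Nip7, a Golgi tethering subunit beside another ribosome biogenesis factor, both sides rose from the Pre to Mid (0.23 ± 0.07 and 0.24 ± 0.09, adjusted p = 0.013 and 0.0495), but from the HiT to Mid Cog8 rose by 0.28 ± 0.07 and Nip7 fell by 0.36 ± 0.09. Their log2 ratio was −1.61 to −0.89 in HiT, above all 8 Mid libraries (−2.25 to −1.74).

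Cbx5 encodes the heterochromatin protein HP1α and Hnrnpa1 a splicing regulator, and their sites are 628 bp apart. Cbx5 had 20.8, 21.7, 17.2 and 18.5 TPM in Pre and 9.56 to 16.1 TPM (median 12.5) in Mid, where every library was below every Pre library. Hnrnpa1 had 78.7, 86.9, 71.2 and 83.8 TPM in Pre and 96.4 to 118 TPM in 7 Mid libraries, with Mid 6 apart at 66.0 TPM. Cbx5 fell by 0.53 ± 0.11 (adjusted p = 0.000762) and Hnrnpa1 rose by 0.41 ± 0.08 (adjusted p = 0.000488). The ratio rose by 0.95 ± 0.15 (adjusted p = 3.92e-05) and fell by 1.34 ± 0.15 in Post (adjusted p = 2.13e-07). Experiment #2 gave 0.88 ± 0.21 (adjusted p = 0.0212) and −1.21 ± 0.18 (adjusted p = 0.000291) for the same steps, with ratios of 2.47 to 2.90 in its 5 Mid libraries and 0.89 to 1.90 in its Pre and Post libraries.

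Retreg3, a receptor for autophagy of the endoplasmic reticulum (ER), and Tubg1, the gamma-tubulin of microtubule nucleation, moved the other way round. Tubg1 had 29.8, 33.7, 28.5 and 29.4 TPM in Pre and 14.4 to 22.9 TPM (median 21.1) in Mid, while Retreg3 had 31.5, 35.9, 31 and 36.1 TPM in Pre and 29.8 to 46.4 TPM (median 38) in Mid. The Tubg1 values did not overlap and the Retreg3 values did. Tubg1 fell by 0.51 ± 0.10 (adjusted p = 0.000461), Retreg3 rose by 0.24 ± 0.07 (adjusted p = 0.0101) and the ratio changed by −0.76 ± 0.14 (adjusted p = 0.000128), against −0.68 ± 0.16 (adjusted p = 0.0185) in experiment #2. The ratio of Mid did not pass the test against HiT (−0.26 ± 0.14, adjusted p = 0.12) or Fed (−0.30 ± 0.14, adjusted p = 0.0938).

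In Shld2/Glud1, a DNA break repair gene beside glutamate dehydrogenase, Shld2 fell from the Pre to Mid by 0.43 ± 0.09 and rose to Post by 0.55 ± 0.09, while Glud1 changed by 0.09 ± 0.07 (adjusted p = 0.348) and fell to Post by 0.26 ± 0.07. The Mid to Post change of their ratio was −0.81 ± 0.09 in experiment #1 and −0.79 ± 0.15 in experiment #2 (adjusted p = 2.13e-07 and 0.00192). The Pre to Mid change of the ratio was 0.52 ± 0.09 in experiment #1 and −0.04 ± 0.18 (adjusted p = 8.74e-05 and 0.915) in experiment #2. Utp18/Mbtd1, an rRNA processing factor beside a chromatin reader, was among the 7 pairs whose ratio changed from the Mid to Dep (−0.73 ± 0.12, adjusted p = 0.000318). Mbtd1 was up-regulated in Mid against Pre, HiT and Fed (0.72 ± 0.13, 0.59 ± 0.13 and 0.44 ± 0.13) and fell to Dep by 0.53 ± 0.13 (adjusted p = 0.0349). The log2 ratio was −0.10 to 0.36 in Mid and −0.98 to −0.24 in every other library of experiment #1, with no overlap. In experiment #2 it was −0.38 to 0.07 in Mid, −0.85 to −0.55 in Pre and −0.84 to −0.17 in Post, so Mid overlapped Post there.

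**Figure D3:**
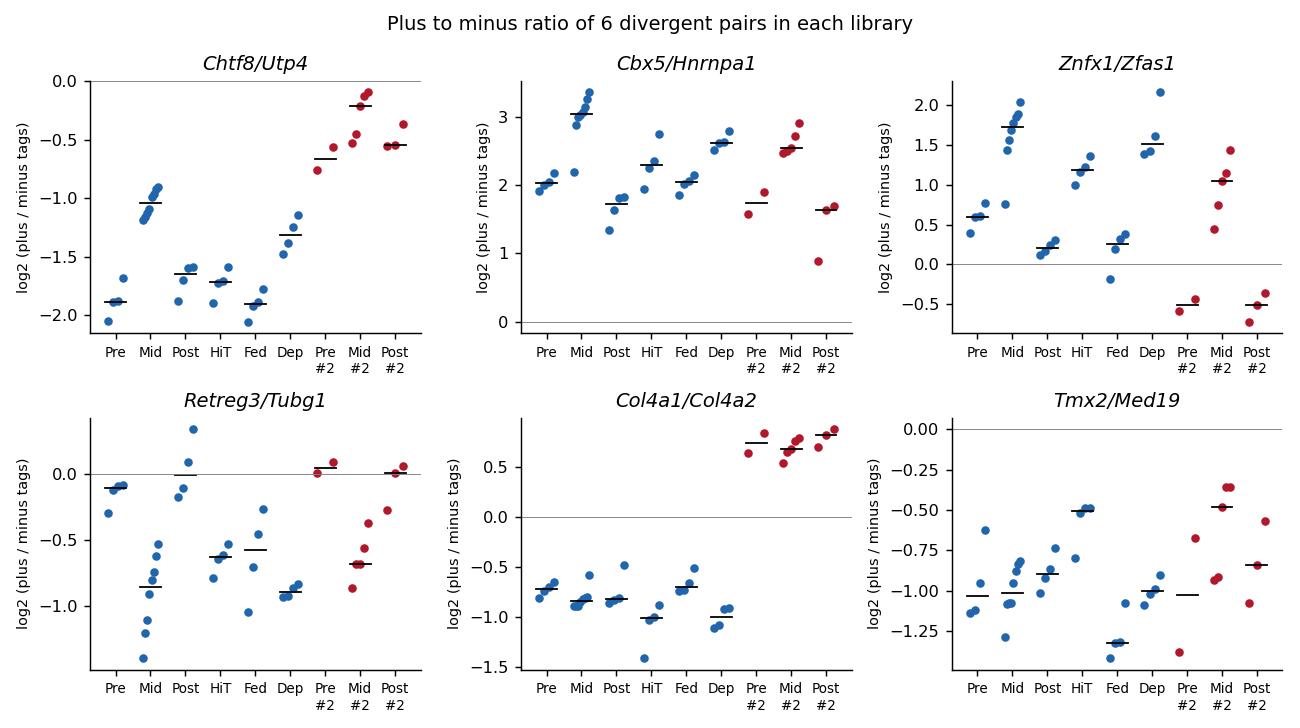
Log2 ratio of plus-side over minus-side tags (y axis) of 6 pairs in each library, by group (x axis), with experiment #1 in blue, experiment #2 (marked #2) in red, group medians as bars and points within a group ordered by value. The Mid libraries of experiment #1 stand above Pre for Chtf8/Utp4 and Cbx5/Hnrnpa1 and below it for Retreg3/Tubg1, overlap Pre for Col4a1/Col4a2 and Tmx2/Med19, and for Znfx1/Zfas1 stand above Pre except for 1 library.

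Among pairs with a noncoding RNA, the coding side could stay level while the other moved. Znfx1 encodes an antiviral RNA helicase, and Zfas1 is a noncoding host transcript of small nucleolar RNAs whose site lies 556 bp away. Zfas1 had 34.6, 42.1, 34.6 and 32.5 TPM in Pre, 65.6 to 102 TPM in 7 Mid libraries and 33.4 TPM in Mid 6, and 23.4, 29.1, 31 and 34.6 TPM in Post. Znfx1 had 20.3 to 27.9 TPM in Pre and 19.7 to 28.1 TPM in Mid, a nearly complete overlap. Zfas1 rose by 1.19 ± 0.17 (adjusted p = 9.37e-06) from the Pre to Mid, Znfx1 changed by 0.10 ± 0.06 (adjusted p = 0.168) and the ratio rose by 1.04 ± 0.17 (adjusted p = 4.28e-05). In experiment #2 the ratio rose by 1.47 ± 0.22 (adjusted p = 0.00066) and fell by 1.48 ± 0.19 (adjusted p = 0.000119) to Post. The ratio was also higher in Mid than in Fed by 1.46 ± 0.17 and than in HiT by 0.44 ± 0.16.

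Scyl2, a pseudokinase of clathrin-coated vesicles, and the noncoding 1500026H17Rik went apart over 102 bp. The noncoding side had 9.04, 11.3, 9.45 and 8.65 TPM in Pre and 4.46 to 7.62 TPM (median 6.61) in Mid, all below Pre, and Scyl2 had 15.5 to 18.5 TPM in Pre and 15.2 to 21.6 TPM (median 19.7) in Mid. The ratio changed by −0.79 ± 0.13 (adjusted p = 4.65e-05) in experiment #1 and −0.92 ± 0.25 (adjusted p = 0.0479) in experiment #2. Myh4, the fast myosin IIb heavy chain, and its antisense RNA Myhas varied together over a wide range. Myh4 ran from 2.19 to 6.30 TPM in the 4 HiT libraries, from 5.32 to 925 TPM in Mid and from 57.9 to 1617 TPM in Fed, and Myhas from 0 to 0.133, 0 to 5.68 and 0.459 to 15.5 TPM in these groups. Both were called up-regulated from the HiT to Mid (6.09 ± 1.48 and 4.59 ± 1.60, adjusted p = 0.00188 and 0.0234), with HiT and Mid libraries that overlapped on both sides and Myhas at 0 in 2 HiT libraries.

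Pairs with an unannotated side showed some of the widest swings. Pnpla7, a lysophospholipase, had 15.8, 18.8, 14.5 and 17.7 TPM in Pre, 30.2 to 43.0 TPM in 7 Mid libraries and 13.6 TPM in Mid 6. The cluster upstream of it on the other strand, with its peak at position 24975890 of chromosome 2, had 2.96, 2.74, 2.03 and 3.35 TPM in Pre, 10.6 to 21.7 TPM in the same 7 Mid libraries and 2.64 TPM in Mid 6. In TPM, Mid 6 thus lay within the range of Pre for the upstream side and below it for Pnpla7. The TMM scaling factor of the fits was 0.83 for Mid 6 and 0.97 to 1.15 for Pre, so this order can differ after scaling. The upstream side rose by 2.44 ± 0.33 (adjusted p = 5.71e-06) and Pnpla7 by 1.07 ± 0.16 (adjusted p = 1.32e-05), and the ratio fell by 1.28 ± 0.22 (adjusted p = 9.72e-05). The noncoding 3300002P13Rik on chromosome 7 had 10.1, 12.9, 12 and 8.91 TPM in Pre and 2.45 to 4.41 TPM (median 3.62) in Mid, below all Pre libraries. It fell by 1.52 ± 0.14 (adjusted p = 3.53e-08) while its unannotated partner with a peak at position 3423634 fell by 0.41 ± 0.16 (adjusted p = 0.0485). In Gm7607, a noncoding RNA on chromosome 9, the HiT libraries had 9.60, 12.3, 6.90 and 6.36 TPM and the Mid libraries 2.86 to 5.08 TPM, and its unannotated partner had 149, 128, 115 and 88.3 TPM in HiT and 158 to 292 TPM in Mid. The groups did not overlap on either side, and the ratio changed by −1.94 ± 0.16 (adjusted p = 8.85e-10), the smallest p of that comparison.

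Pairs with sides that moved in the same direction from the Pre to Mid were found among genes of a shared structure or compartment and among unrelated genes. Col4a1 and Col4a2, whose products form the collagen IV of basement membranes, are transcribed from sites 125 bp apart. Col4a1 had 255, 281, 216 and 269 TPM in Pre, 254 to 416 TPM (median 329) in Mid and 187, 191, 210 and 247 TPM in Post, and Col4a2 had 146, 173, 138 and 162 TPM in Pre, 137 to 236 TPM (median 197) in Mid and 103, 109, 118 and 177 TPM in Post. Mid overlapped Pre on both sides and lay above every Post library for Col4a1. Both rose from the Pre to Mid (0.46 ± 0.10 and 0.36 ± 0.13, adjusted p = 0.000937 and 0.032) and fell to Post by 0.68 ± 0.10 and 0.60 ± 0.13. The ratio changed by −0.09 ± 0.09 and 0.07 ± 0.09, with adjusted p = 0.496 and 0.599. It was lower in other groups, at −1.41 to −0.88 in HiT and −1.11 to −0.90 in Dep, against −0.89 to −0.58 in Mid. Every Dep library lay below every Mid library, while HiT overlapped Mid. In experiment #2 the Mid to Post falls were 0.65 ± 0.10 and 0.55 ± 0.10, adjusted p = 0.00136 and 0.00528.

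Tmx2, a thioredoxin-related protein of the ER, and Med19, a Mediator subunit, fell together from the Pre to Mid by 0.49 ± 0.10 and 0.53 ± 0.10 and rose together to Post by 0.70 ± 0.10 and 0.82 ± 0.10 (adjusted p at most 0.000788). Med19 had 16.3, 18, 14.9 and 16.3 TPM in Pre and 8.49 to 12.2 TPM in Mid, with no overlap, and Tmx2, with 1 Pre library inside the range of Mid, had 25.1, 34.9, 32.3 and 35.8 TPM in Pre and 14.9 to 25.5 TPM in Mid. Against HiT their balance did move. Med19 was lower in Mid by 0.58 ± 0.10 and Tmx2 by 0.14 ± 0.11 (adjusted p = 0.322), and the ratio changed by −0.43 ± 0.10 (adjusted p = 0.00143). Alg2, a mannosyltransferase of N-glycan synthesis, and Sec61b, of the ER translocon, fell by 0.70 ± 0.13 and 0.71 ± 0.14 from the Pre to Mid, and their ratio changed by −0.01 ± 0.13. Alg2 had 6.86 to 10.4 TPM in Pre and 3.56 to 6.16 TPM in Mid, and Sec61b 34.7 to 50.5 TPM and 18.3 to 30.8 TPM, with no overlap on either side. From the HiT to Mid, Sec61b fell by 1.34 ± 0.13 and Alg2 by 0.66 ± 0.13, and the ratio by 0.68 ± 0.12 (adjusted p = 7.71e-05). Zfp142/Bcs1l, a zinc finger gene beside an assembly factor of respiratory complex III, was called down-regulated on both sides from the Pre to Mid in both experiments (−0.51 ± 0.10 and −0.45 ± 0.10, then −0.67 ± 0.16 and −0.64 ± 0.16).

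Of 20 textbook bidirectional gene pairs looked for, 12 were found. Hspd1 and Hspe1, which encode the Hsp60 and Hsp10 chaperonins of mitochondria, had 114 to 178 TPM and 140 to 220 TPM in Mid and 126 to 149 TPM and 156 to 190 TPM in Pre. Mid and Pre overlapped on both sides, and the only calls in experiment #1 were a rise of Hspe1 (0.27 ± 0.08, adjusted p = 0.0128) and of the ratio (0.20 ± 0.07, adjusted p = 0.0197) from the Fed to Mid. Hadha and Hadhb, the subunits of the trifunctional protein of fatty acid oxidation, both rose from the HiT to Mid (0.30 ± 0.12 and 0.27 ± 0.08) and from the Fed to Mid (0.60 ± 0.12 and 0.32 ± 0.08), and their ratio did not pass the test among the 6 groups (adjusted p = 0.153). Ppat and Paics, enzymes of purine synthesis, changed by −0.21 ± 0.08 (adjusted p = 0.0376) and 0.15 ± 0.07 (adjusted p = 0.129) from the Pre to Mid, and the ratio rose by 0.37 ± 0.11 (adjusted p = 0.0152). In Mrps12/Sars2, a mitochondrial ribosomal protein beside the mitochondrial seryl-tRNA synthetase, the ratio rose from the HiT to Mid by 0.46 ± 0.09 (adjusted p = 0.000172) as Mrps12 fell by 0.29 ± 0.08 and Sars2 changed by 0.18 ± 0.11 (adjusted p = 0.191).

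The 9 histone pairs all joined an H2A gene to an H2B gene on chromosome 13, 208 to 239 bp apart. All 18 sides were down-regulated from the HiT to Mid, with log2 fold changes of −5.71 to −0.69 and a median of −3.44. Over all 67 histone clusters of the table, 56 were down-regulated and the median was −2.82. Their summed level was 670 to 1663 TPM in the 4 HiT libraries and 198 to 373 TPM in the other libraries of experiment #1 except Dep 1, which had 707 TPM. In 17 of 18 sides every HiT library was above every Mid library.

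Hist1h2ah had 66.7, 60.2, 19.5 and 39.1 TPM in HiT and 0.533 to 1.59 TPM in Mid, and its partner Hist1h2bk 81.2, 72.8, 26.7 and 47.2 TPM in HiT and 1.15 to 3.29 TPM in Mid. They fell by 5.71 ± 0.61 and 4.59 ± 0.52 (adjusted p = 5.2e-08 and 1.35e-07). The groups were far apart on both sides, and the order of the 4 HiT libraries was the same on both. The balance changed as well, since the log2 ratio was 0.27 to 0.45 in HiT and 0.74 to 2.37 in Mid (1.12 ± 0.19, adjusted p = 3.39e-05). The ratio was called in 5 of the 9 histone pairs for this comparison. The sequence between the sites of Hist1h2ap/Hist1h2br is the exact reverse complement of that of Hist1h2bq/Hist1h2ao. The transcribed sequences were not compared, and whether tags of similar histone genes were assigned to either copy was not tested.

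Single libraries outside HiT stood high too. Dep 1 was the highest Dep library on all 18 histone sides and Mid 11 of experiment #2 the highest of its 5 Mid libraries on all 18. Mid 11 had a histone sum of 1418 TPM, and the other libraries of experiment #2 had 231 to 363 TPM. The 2 pairs called on both sides from the Mid to Dep, Hist1h2ah/Hist1h2bk (2.73 ± 0.62 and 2.06 ± 0.53) and Hist1h2ag/Hist1h2bj (1.98 ± 0.52 and 1.48 ± 0.38), were 0 without Dep 1, where Hist1h2ag and Hist1h2bk had fold changes below 0. The count was also 0 or 1 without any 1 of 18 other libraries, as given above. Neutrophil markers (4 of 5, Ltf without a cluster) summed to 117 TPM in Dep 1 and 0.292 to 0.824 TPM in the other Dep libraries, with Camp at 53.2, Ngp at 22.5, S100a8 at 23.4 and S100a9 at 17.6 TPM. In Mid 11 they summed to 7.92 TPM, all from Camp and Ngp, with S100a8 and S100a9 at 0, and to 0.0920 to 1.11 TPM in the other Mid libraries of experiment #2. In HiT they summed to 0.261 to 0.951 TPM and in Mid of experiment #1 to 0.180 to 0.760 TPM, while macrophage markers were higher in HiT as given above. Red blood cell markers summed to 5504 TPM in Mid 11 and 1129 to 2797 TPM in the other Mid libraries of experiment #2. In Dep 1 they summed to 4090 TPM, the highest of Dep, with Dep 3 close at 4043 TPM. The HiT libraries had 1305 to 3177 TPM of them and the Mid libraries of experiment #1 had 2370 to 4465 TPM. Whether other cells carry the histone tags was not tested.

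**Figure D4:**
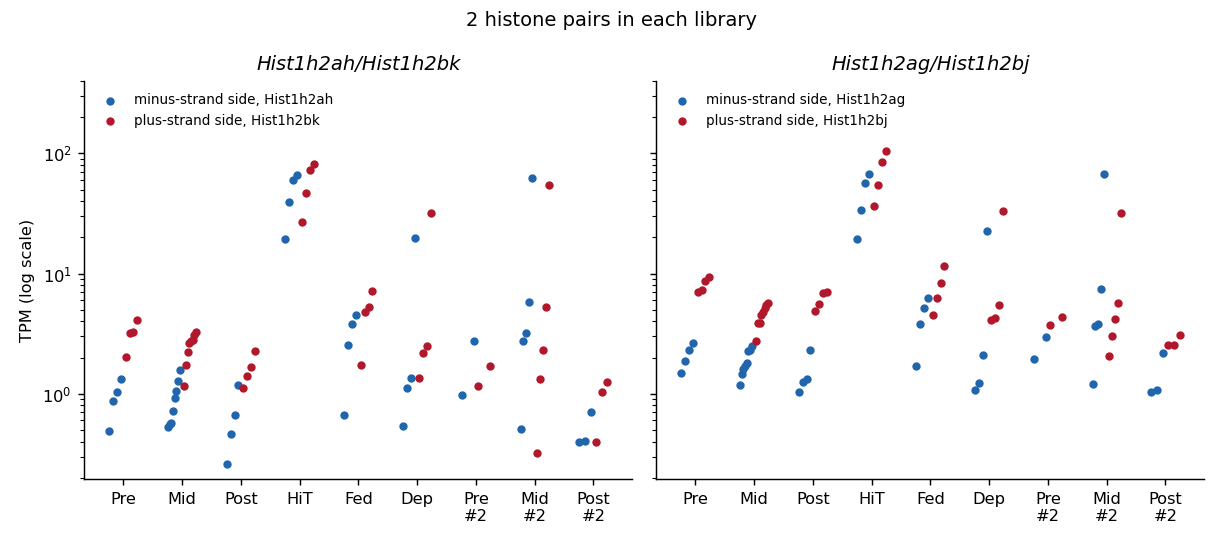
TPM on a log scale (y axis) of both sides of Hist1h2ah/Hist1h2bk (left) and Hist1h2ag/Hist1h2bj (right) in each library, by group (x axis, experiment #2 marked #2), minus-strand side in blue, plus-strand side in red, and points within a group ordered by value. The 4 HiT libraries lie above all Mid libraries of experiment #1 on both sides, and 1 Dep library and 1 Mid library of experiment #2 lie far above the rest of their groups.

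Outside the histones, Cks1b, a regulatory subunit of cyclin-dependent kinases, had 11.2, 11.1, 5.63 and 7.05 TPM in HiT and 1.56 to 2.99 TPM in Mid, with no overlap. It fell from the HiT to Mid by 2.14 ± 0.20 (adjusted p = 8.44e-09), its partner Shc1, an adaptor of growth factor receptors, by 0.44 ± 0.08, and the ratio rose by 1.69 ± 0.17. In experiment #2 Cks1b had 5.92 TPM in Mid 11, the library with the high histone sum, and 1.33 to 1.83 TPM in the other Mid libraries. Sides grouped by the gene classes of the processing section behaved as follows in experiment #1. The 9 cytosolic ribosomal protein genes in pairs were down-regulated in 5 cases from the Pre to Mid and in all 9 from the HiT to Mid (median −0.33), where 73 of all 94 ribosomal protein clusters were down-regulated (median −0.31), and 6 of the 9 were up-regulated from the Mid to Post. Of all 94 such clusters 38 (Pre to Mid) were down-regulated and 45 (Mid to Post) up-regulated. Of 22 respiratory chain and ATP synthase genes in pairs, 12 were up-regulated and 1 was down-regulated from the HiT to Mid (median 0.23), as were 50 and 4 of 113 such clusters in all (median 0.21), and 9 up-regulated and 0 down-regulated from the Fed to Mid, against 28 and 1 of the 113. Of 6 DNA repair and replication genes, 4 were down-regulated from the Pre to Mid (median −0.39) and 4 up-regulated from the Mid to Post, whereas of all 35 such clusters 7 were down-regulated and 3 up-regulated in the first comparison (median −0.02) and 2 and 6 in the second (median 0.04).

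From the Pre to Mid, 1 of 21 splicing genes in pairs was up-regulated and 2 were down-regulated, against 39 and 10 of 144 in the table. Of 15 chaperone genes in pairs 1 was up-regulated and 0 were down-regulated (21 and 9 of 80 in the table), of 17 genes of the mitochondrial ribosome and protein import 1 and 3 (5 and 28 of 105), of 8 aminoacyl-tRNA synthetase genes 1 and 1 (9 and 3 of 34) and of 4 proteasome genes 0 and 1 (8 and 7 of 44). The 18 histone sides had 0 calls in either direction in this comparison. These counts carry no test.

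Experiment #2 gave fewer calls at its smaller size. From the Pre to Mid, both sides rose in 2 pairs, fell in 2 and went apart in 0, against 5.30% of clusters up-regulated and 4.44% down-regulated, and the ratio changed in 18 pairs (4.58%). The 4 same-direction pairs were 2 without Mid 9, 11, 12 or 13 or Post 5 and 0 without Pre 5 or 6. The 18 ratio calls were 31 without Mid 10, 11 without Mid 9 or Mid 12, 5 without Pre 5 and 2 without Pre 6. From the Mid to Post, both sides rose in 3 pairs, fell in 3 and went apart in 3, against 7.73% and 8.65% of clusters, and the ratio changed in 41 pairs (10.4%). Without Post 5, 6 or 7 the 6 same-direction pairs were 3 and the ratio calls 23, 26 and 25. Of called clusters, 47.2% were up-regulated from the Mid to Post, and 58.3% with upper-quartile scaling and 62.2% with library size alone.

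The Post libraries of experiment #2 were all on sequencing lane 4 with Mid 13, and the other libraries on lane 3. With lane as a term, the ratio changed in 7 pairs from the Mid to Post and 1 pair was called in the same direction on both sides. Lane 3 holds no Post library and lane 4 only 1 Mid library, so values within a lane rest on that library. The labels give no lane for experiment #1.

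The direction of change of the balance carried over between the experiments, which share no mice. Of the 122 pairs with a called Pre to Mid change of the ratio in experiment #1, 114 (93.4%) moved the same way in experiment #2, against 74.0% of all 393 pairs. Of the 121 pairs from the Mid to Post, 116 (95.9%) did, against 78.9% of all pairs. From the Pre to Mid 15 pairs were called in both experiments in the same direction, which is 12.3% of the calls of experiment #1 and 83.3% of those of experiment #2. From the Mid to Post 35 were (28.9% and 85.4%), and 0 pairs were called in opposite directions in either comparison. Of the 14 pairs with sides in opposite directions from the Pre to Mid in experiment #1, all 14 kept the sign of both sides in experiment #2, as did 7 of 7 pairs up-regulated and 7 of 9 pairs down-regulated on both sides. So did 11 of 13 opposite pairs, 24 of 28 up-regulated and 13 of 13 down-regulated pairs of the Mid to Post comparison. Over all 393 pairs the sign of both sides was kept in 55.5% (Pre to Mid) and 59.8% (Mid to Post). A test of the difference of the Pre to Mid change between the experiments called 0 pairs (0.00%, edgeR), with 14 at an unadjusted p under 0.05. With only 2 Pre libraries in experiment #2 this test can miss real differences, so the lack of calls does not show that the changes were equal.

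**Figure D5:**
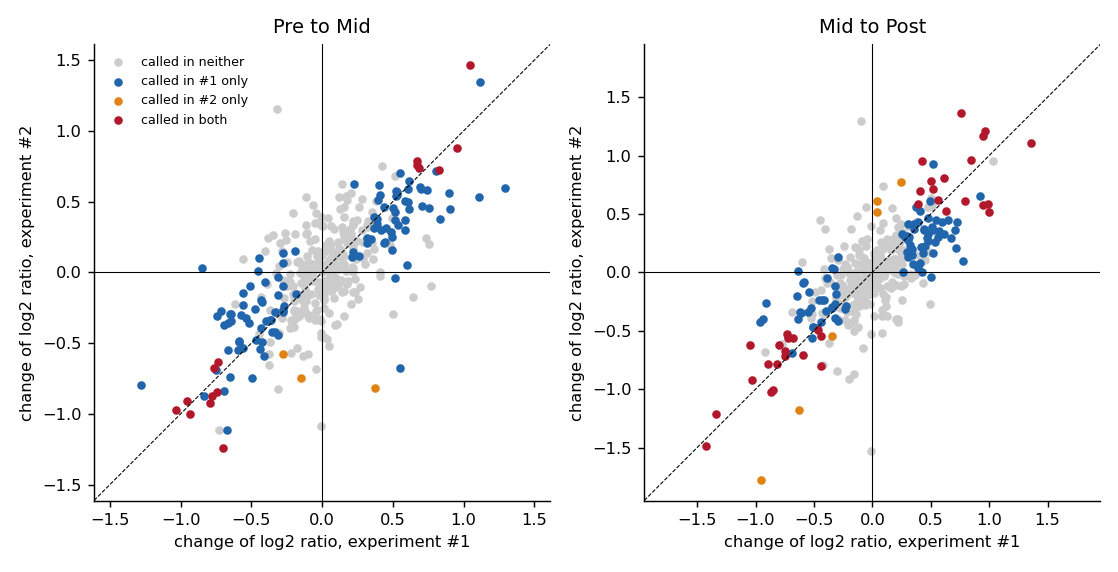
Change of the log2 ratio in experiment #1 (x axis) against that in experiment #2 (y axis) for the 393 pairs, 1 point each, from the Pre to Mid (left) and from the Mid to Post (right), coloured by the experiment in which the ratio test passed an FDR of 0.05, with equal change dashed. The points rise along the diagonal (Pearson r of 0.72 and 0.74), and the pairs called in both experiments, 15 and 35, lie in the quadrants of equal sign.

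The level of the balance was less alike than its change. The mean log2 ratio differed by over 1 between the experiments in 107 pairs, with a median absolute difference of 0.59, and in 50 pairs the higher side was the other one. In Col4a1/Col4a2, Col4a1 was the higher side in all 28 libraries of experiment #1 (log2 ratio −1.41 to −0.48) and Col4a2 in all 10 of experiment #2 (0.54 to 0.87). The Mid to Post changes of these genes were nevertheless of similar size in both experiments, as given above. The experiments differ in mice, in sequencing runs and, by the names of the deposited columns, in the read processing before clustering, which cannot be told apart here. The study's methods name NextSeq and HiSeq instruments for the 2 experiments.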

How the data were processed

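Soleus RNA of 38 mice was measured by nAnT-iCAGE, which sequences capped 5′ ends without amplification. Reads were aligned by the authors to mm10 (GRCm38) with BWA and HISAT2, as the submitters' processing notes name them (versions not given in the sources used here), start sites were grouped into clusters, and the authors deposited unnormalized tag counts per cluster and TPM. TPM scales to all tags of a library, including those outside clusters, and is not corrected for composition. Comparing TPM between libraries can therefore differ from the fitted changes.

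Pairs were found from peak positions, and genes came from GENCODE M21 5′ ends within 500 bp on the same strand. Clusters with any tag were tested with edgeR 4.0.16 in R 4.3.3, by quasi-likelihood with TMM scaling and group as the only term. No other filter for low counts was applied. The fits took 28 libraries of experiment #1 over 10776 clusters and 10 libraries of experiment #2 over 10816, with Benjamini-Hochberg adjustment at 0.05. Each ratio test used 2 columns per library, a term per library and a plus-side term per group over the 393 pairs, in the same tool. Log2 ratios per library add 0.5 counts to each side. limma 3.58.1 and DESeq2 1.42.0 served alternatives, and scripts were tested on simulated data. Depth ran from 9359994 to 39176649 tags, and spreads between libraries measure the mice and the preparation together.

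The members, gene classes, textbook pairs and alternatives were chosen with earlier results of these data known. The named pairs were the 6 with the largest smaller change among those called up on both sides from the Pre to Mid, the same for down, up to 6 called in opposite directions, the 8 with the smallest p among the 6 groups, the 3 with the smallest ratio p and the 3 same-direction pairs with the largest changes in each other comparison, the 5 of highest level, the textbook pairs and those at the spacing limit. Pairs outside this rule were chosen after their values were seen, as was the choice to describe the histone pairs as a group. Sequences are RefSeq's, and pairs outside its promoter windows have none here. Gene classes are lists of symbols with a cluster, such as ribosomal proteins, proteasome subunits and DNA repair genes.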

Additional observations from a re-analysis of the deposited data

Results flagged for a closer look

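Only 13 of the pairs described above were searched for libraries that stood apart. In 13 of their 182 groups of 4 to 8 libraries, 1 library stood apart from the others of its group. The measure was its gap to the nearest value against the range of the group (Dixon's 95% limit). Chance flags about 1 in 20 groups.

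Mid 11 of experiment #2 stood apart on both sides of the histone pairs, with 61.9 TPM for Hist1h2ah (others 0.506 to 5.79), 55 TPM for Hist1h2bk (0.322 to 5.31), 67.0 TPM for Hist1h2ag (up to 7.43) and 31.9 TPM for Hist1h2bj (2.07 to 5.69). Dep 1 stood apart on the same sides, with 19.7 TPM for Hist1h2ah (0.540 to 1.35), 32.2 TPM for Hist1h2bk (1.35 to 2.48), 22.8 TPM for Hist1h2ag (up to 2.12) and 33.4 TPM for Hist1h2bj (4.12 to 5.52). The sides of a pair were thus high together, in the libraries whose neutrophil and red blood cell markers were also the highest of their groups. The part of other cells was not tested.

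Mid 6 had 66.0 TPM of Hnrnpa1 (others 96.4 to 118) and 13.6 TPM of Pnpla7 (30.2 to 43.0). In TPM, which is not corrected for composition, these values lay below those of every Pre library of experiment #1. The TMM factor was 0.83 for Mid 6 and 0.97 to 1.15 for these Pre libraries, so the order can differ after scaling. Without Mid 6, 136 pairs had a called ratio change from the Pre to Mid. Post 1 had 9.99 TPM of Pnpla7 (13.2 to 13.6), Mid 10 of experiment #2 had 24.3 TPM of Tmx2 (14.2 to 17), and Dep 3 had 443 TPM of Col4a1 (263 to 291).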

How the results depend on the processing

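Over 16 counts, 75 of 96 alternatives stayed within 1.5 times the value reported, and 47 of 367 fits that left out 1 library moved further. Of 11975 comparisons of called values of the named pairs, 780 lost their call and 2 reversed. Both reversals came without Dep 1, from the Mid to Dep (leaving out 1 library gave −0.26 to 2.33 for Hist1h2ag and −0.24 to 2.39 for Hist1h2bk). For ratio counts, the compared groups alone gave 83 (Fed to Mid) and 4 pairs (Mid to Dep), and a replicate block 31 from the Mid to Dep. In experiment #2 the likelihood ratio test gave 35 (Pre to Mid) and 62 pairs (Mid to Post), and a lane term 7 (Mid to Post). For pairs called in the same direction, library size alone gave 4 (Pre to Mid), 7 (Mid to Post), 19 (HiT to Mid), 10 (Fed to Mid) and 0 (Mid to Dep), all 38 libraries together 32 (Pre to Mid) and 0 (Mid to Dep), and the compared groups or a replicate block 17 (Fed to Mid) and 0 (Mid to Dep). In experiment #2, DESeq2 gave 12, the likelihood ratio test 11 and a lane term 1 (Mid to Post), and the lane term 2 (Pre to Mid). The causes were not tested.

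Leaving out 1 library gave ratio counts of 89 to 136 (Pre to Mid), 90 to 147 (Mid to Post), 133 to 171 (HiT to Mid), 94 to 136 (Fed to Mid), 4 to 13 (Mid to Dep), 2 to 31 and 23 to 43 (experiment #2), 259 to 291 among the 6 groups and 0 for the difference between experiments. Same-direction counts were 6 to 23, 23 to 43, 39 to 58, 17 to 36 and 0 to 3 in that order, then 0 to 5 and 3 to 8 in experiment #2. Library size alone shifted the median cluster by 0.11 (HiT to Mid) and −0.12 (Fed to Mid). Same-numbered libraries did not deviate together on average (60 pairs, median r −0.09, range −0.62 to 0.43, 16 over 0.1), against a median of 0.02 for other pairs. The main fits therefore did not pair mice by number, though this check cannot exclude a shared batch. A replicate block gave 127, 136, 155, 97 and 288 ratio calls (Pre to Mid, Mid to Post, HiT to Mid, Fed to Mid, among groups). Settings added after seeing the data left out the 9 histone pairs, kept pairs of at least 1 CPM on both sides, or dropped libraries from the test between experiments. Lower sides of low level carry few tags in the shallow libraries of experiment #2, which limits their ratios.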
